A study of Mus musculus with 12 samples.

Results

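The growth factor and cytokine receptors of the peri-implantation mouse embryo were described as 10 genes chosen by name: the receptors Egfr, Erbb2, Erbb3, Igf1r, Insr, Lifr, Il6st and Notch2, the ligand Hbegf and the transcription factor Stat3. All 33 probe sets that the array's annotation pairs with exactly 1 of these genes were taken, of 45037 probe sets and 18193 genes in all. Blastocysts, the hollow embryos that attach to the uterus, were measured on 12 arrays in 3 groups of 4: cultured in Ca-free medium, treated by 20 pulses, and control. The sample labels do not say what the pulses were. The study's title concerns the pattern of Ca2+ oscillations in fertilized eggs, so the question for these genes is whether their mRNA differed at the blastocyst stage after these treatments. The sources used here give no strain, age, pulse settings, time in the medium or number of embryos behind an array. Nothing in the labels says that the replicates are separate collections, and a p-value then measures only how these samples spread. Each array read RNA of whole embryos, and fewer cells of a type and less RNA per cell cannot be told apart.

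These genes carry the signals between the blastocyst and the uterus. HB-EGF, encoded by Hbegf, is made in mouse uterine epithelium next to the attaching blastocyst and binds EGFR. ERBB2 has no known ligand of its own and works as a partner of the other ERBB receptors, while ERBB3 binds neuregulins and has an impaired kinase. Maternal LIF is required for implantation in mice. It binds LIFR, which pairs with gp130 (Il6st) and acts through JAK kinases and STAT3. IGF1R and INSR bind the insulin-like growth factors and insulin, and NOTCH2 is cut after ligand binding to free a domain that acts in the nucleus.

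Promoter sequences are shown for the genes on which the comparisons below turn: Egfr, with lower signal in Ca-free medium, Lifr, with the largest change of the 23 tested probe sets in Ca-free medium against 20 pulses, and Notch2, the gene called after 20 pulses. Each is the 250 bases before an annotated gene start in RefSeq (GRCm38.p6), 5′ to 3′, with the GC box GGGCGG, or CCGCCC where it reads on the other strand, in capitals. Lifr has 2 annotated starts.
Egfr, chr11:16751953-16752202, + strand: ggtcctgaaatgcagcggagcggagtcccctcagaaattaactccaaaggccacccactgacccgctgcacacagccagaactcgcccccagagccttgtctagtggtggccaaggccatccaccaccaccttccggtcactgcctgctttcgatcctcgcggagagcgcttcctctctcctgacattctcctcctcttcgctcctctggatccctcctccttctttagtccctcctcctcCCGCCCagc
Lifr, chr15:7129322-7129571, + strand: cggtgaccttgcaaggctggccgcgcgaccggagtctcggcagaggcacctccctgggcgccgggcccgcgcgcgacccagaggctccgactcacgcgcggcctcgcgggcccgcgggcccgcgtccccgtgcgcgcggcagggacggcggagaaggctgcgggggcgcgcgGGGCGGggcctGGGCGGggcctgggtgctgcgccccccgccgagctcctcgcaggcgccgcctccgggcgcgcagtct
Lifr, chr15:7140292-7140541, + strand: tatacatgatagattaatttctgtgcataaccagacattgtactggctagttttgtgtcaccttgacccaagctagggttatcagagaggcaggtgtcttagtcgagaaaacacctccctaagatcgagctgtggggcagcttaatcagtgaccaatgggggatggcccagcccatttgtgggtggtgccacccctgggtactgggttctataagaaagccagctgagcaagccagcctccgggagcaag
Notch2, chr3:98013288-98013537, + strand: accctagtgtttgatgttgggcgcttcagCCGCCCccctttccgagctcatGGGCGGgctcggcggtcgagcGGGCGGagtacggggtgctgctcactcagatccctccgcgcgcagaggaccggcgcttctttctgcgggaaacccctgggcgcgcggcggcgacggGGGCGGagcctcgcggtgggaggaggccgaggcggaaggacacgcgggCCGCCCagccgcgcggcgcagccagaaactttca
The Egfr window held 1 GC box, the first Lifr window 2, the second Lifr window 0 and the Notch2 window 5, with a GC content of 60.8%, 82.4%, 50.8% and 72%. Windows were found for 7 of the 10 genes, Egfr, Erbb2, Igf1r, Il6st, Lifr, Notch2 and Stat3. A GC box was in 6 of their 8 windows and in 32.7% of all 32851 windows of this length. The letters TTCNNNGAA, which read the same on both strands and are those of a STAT site, were in 0 of the 8 windows and in 7.02% of all. Searched on both strands, TGGGAA, the core bound by the Notch pathway factor RBPJ, was in 0 of 8 (21.6% of all), and TATAAA in 0 of 8 (12.4% of all). TTCNNNGAA and TGGGAA can share letters, and a match or its absence in such a window describes letters only.

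Values are array intensities, called signal here, scaled so that the 2% trimmed mean of each array is 500. A log2 change is a difference of mean log2(signal + 32), tested with limma across all probe sets whose mean over the 12 arrays was 100 or more, and called at a Benjamini-Hochberg adjusted p under 0.05. Of the 33 probe sets, 23 passed that minimum, and they belong to 9 of the 10 genes. The only Erbb2 probe set, with a mean of 76.4, did not. Each gene was summarised by its brightest probe set. Signals of different probe sets were not set against each other.

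The whole table frames these values. The Ca-free arrays had a median signal of 127.6 to 130.7, the arrays of 20 pulses 157.8 to 178.8 and the controls 164.6 to 176.8 at the same trimmed mean. The median change of all tested probe sets in Ca-free medium against control was -0.18, and it was -0.02 after quantile normalization, 0.20 after median scaling and -0.36 after scaling to the 9 hybridization controls. The Actb 3′ to 5′ ratio was 1.69 to 1.88 in Ca-free medium, 1.49 to 1.69 after 20 pulses, 1.59 and 1.67 for controls 1 and 2 but 2.69 and 2.64 for controls 3 and 4. The Gapdh ratio was 2.89 to 5.05 in Ca-free medium, 5.70 to 7.58 after 20 pulses and 5.76 to 8.90 in control, and 18S rRNA signal at the 5′ end was 4003 to 5780, 2653 to 3688 and 878 to 2559, so the Ca-free arrays lay outside both other groups on these measures. Markers of trophectoderm and of epiblast (10 of 10 genes each) and of primitive endoderm (9 of 10) had a mean signal over 100. In Ca-free medium against control, 2 trophectoderm genes were called higher and 2 lower, 2 epiblast genes higher and 0 lower, and 0 primitive endoderm genes higher and 2 lower. Of all tested genes 12.3% were called higher and 28.8% lower. After 20 pulses 1 primitive endoderm gene was called higher, and no other gene of these lists was called (0.75% of all genes higher, 0.331% lower). Summed signals of oviduct and uterine epithelium markers (9 of 11 over 100) were 3505 to 4377 in Ca-free medium, 4450 to 5788 after 20 pulses and 5075 to 6029 in control, and 7 of their 9 tested genes were called lower in Ca-free medium against control (median log2 change -0.72). Fibroblast markers (5 of 8 over 100) summed to 882 to 1076, 1034 to 1303 and 1351 to 1471 in the same groups, cumulus and granulosa markers (6 of 11) to 5341 to 6078, 5706 to 6090 and 5352 to 5910, and blood markers (3 of 6) to 454 to 588, 734 to 955 and 592 to 893. The gene Nr5a2 alone made up most of the cumulus and granulosa sums, with means of 3477, 3324 and 2862, so these sums say little about the other genes of that list. In Ca-free medium against control, 3 of 5 tested fibroblast genes were called lower (median -0.59), 3 of 6 cumulus and granulosa genes lower and 1 higher (-0.43), and 0 of 3 blood genes (-0.37). No listed marker read 0 in a group's mean, but means were as low as 6.01 (Lcn2 in Ca-free medium) and detection calls were not used. A signal above 0 therefore does not show that a cell type was present. The part of these differences in the results below was not tested.

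In Ca-free medium, Egfr, Lifr and Il6st were lower than in control and Notch2 was higher by the brightest probe set, whereas Erbb3, Igf1r, Insr, Hbegf and Stat3 did not pass the test. That is 1 of 9 tested genes higher and 3 lower, where 12.3% of all tested genes were higher and 28.8% lower. With the mean of each gene's tested probe sets instead, 0 were higher and 5 lower (9.48% and 31.4% of all genes). Of the 23 probe sets, 11 were called in Ca-free medium against control, 1 higher and 10 lower, where 40.3% of all tested probe sets were called, 10.6% higher and 29.7% lower. Their median log2 change was -0.36, against -0.18 for all tested probe sets. The split of the calls moved with the scaling: 1 higher and 1 lower after quantile normalization (9.85% and 9.93% of all), 4 higher and 1 lower after median scaling (36.9% and 5.46%), and 0 higher and 14 lower after scaling to the hybridization controls (2.74% and 49.2%). On 6 of the 23 probe sets every Ca-free array was below every control array (27% of all), and on 1 above (9.23%).

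The direction of change depended on signal across the whole table. Among all probe sets with a mean signal of 100 to 300 the median change was -0.37 and 39% were called lower, and 15 of the 23 probe sets of these genes lay there, 8 of them called lower and 0 higher. Between 300 and 1000 the median was -0.14 and 31% were called lower and 8.71% higher, against 2 lower and 1 higher of 6. Over 1000 it was 0.10, with 8.43% lower and 30.1% higher, against 0 of 2. The share of calls was 47.8% for the receptor genes' probe sets and 40.3% for all, so the count by itself is near the background.

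After 20 pulses against control, 1 of the 23 probe sets was called, the brightest of Notch2, which was higher, where 1.48% of all were called, 1.1% higher and 0.374% lower (of all genes by their brightest probe set, 0.75% higher and 0.331% lower). The median change of the 23 was -0.01 and that of all probe sets -0.03. Every array of 20 pulses was above every control array on 2 probe sets (5.85% of all) and below on 0 (5.11%). In Ca-free medium against 20 pulses, 6 were called and all 6 were lower, where 32.6% of all were called, 9.22% higher and 23.4% lower. Here too the split moved with the scaling: 0 higher and 2 lower after quantile normalization (5.09% and 4.99% of all), 5 higher and 1 lower after median scaling (31.5% and 3.53%), and 0 higher and 19 lower after scaling to the hybridization controls (0.329% and 71%). Every Ca-free array was below every array of 20 pulses on 6 probe sets (22.2% of all) and above on 0 (9.29%). By the brightest probe set 2 of 9 genes, Egfr and Lifr, were lower and 0 higher, where 21% of all genes were lower and 11.2% higher. After quantile normalization 2 genes were lower and 0 higher, after median scaling 1 lower and 3 higher, and after scaling to the hybridization controls 8 lower and 0 higher.

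**Figure D1:**
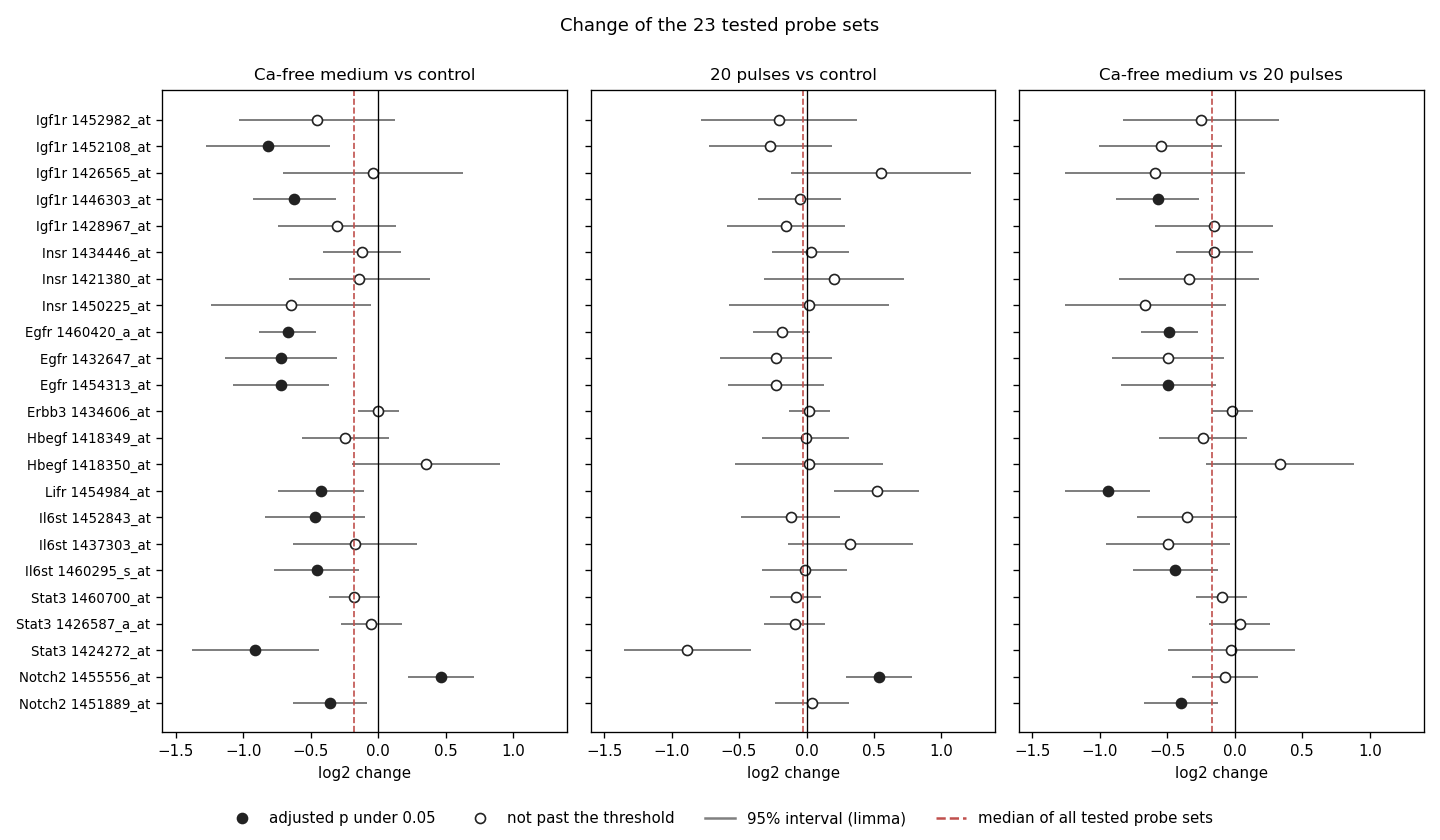
Log2 change with 95% interval (x axis) of each tested probe set of the receptor genes (rows) in Ca-free medium against control, 20 pulses against control and Ca-free medium against 20 pulses. Filled points are called and dashed lines mark the median of all tested probe sets. In Ca-free medium against control 20 of the 23 changes lie below 0, after 20 pulses 13 do, and the 2 Notch2 probe sets stand on opposite sides of 0 in Ca-free medium against control.

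Among the ERBB receptors, Egfr fell in Ca-free medium on all 3 tested probe sets, while the bright Erbb3 probe set had nearly the same mean in the 3 groups. The brightest Egfr probe set (1460420_a_at) read 638.6, 619, 644.8 and 569.7 in Ca-free medium, 1011, 948.9, 838.1 and 737.8 after 20 pulses, and 1035, 945.5, 1041 and 989.9 in control. The Ca-free arrays lay below all the others without overlap, and the arrays of 20 pulses reached into the control range. Egfr averaged 618 ± 34.0 in Ca-free medium against 1003 ± 44.3 in control (SD over 4 arrays each), 0.616 of the control mean. The log2 change was -0.67 (SE 0.095, 95% interval -0.88 to -0.47, limma adjusted p = 0.00036), and it stayed called under every alternative run, between -0.87 and -0.28.

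Egfr averaged 884 ± 121 after 20 pulses (SD, n = 4), and the log2 change against control was -0.18 (95% interval -0.39 to 0.02, limma adjusted p = 0.365). Against 20 pulses the Ca-free arrays were lower by a log2 change of -0.49 (limma adjusted p = 0.00304), a call that ended only under median scaling, at -0.13. The Egfr probe set 1454313_at read 167.2, 220.4, 164 and 126 in Ca-free medium against 328.8, 311.9, 275.2 and 268.6 in control, without overlap. It changed by -0.72 (limma adjusted p = 0.00395), and 1432647_at also by -0.72 (adjusted p = 0.00927). Neither was called under quantile normalization (-0.40 and -0.42), under median scaling (-0.36 for each) or against controls 3 and 4 alone (-0.61 and -0.58). For 1454313_at the call against 20 pulses (log2 change -0.49, limma adjusted p = 0.0323) ended without Ca-free array 1, 3 or 4 or array 1 or 2 of 20 pulses, where it lay between -0.49 and -0.38. It also ended under quantile normalization (-0.20), under median scaling (-0.17), with no minimum signal, in a fit of only the 8 arrays compared (-0.49 each) and on Ca-free arrays 2 and 3 alone (-0.33). The 4 remaining Egfr probe sets had means under 100 and were not tested.

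Erbb3 (1434606_at) read 3760, 3868, 3839 and 3349 in Ca-free medium, 4094, 3760, 3588 and 3572 after 20 pulses, and 3714, 3613, 3481 and 3992 in control. The 3 groups overlapped. The log2 change was 0.00 in Ca-free medium (95% interval -0.14 to 0.14, limma adjusted p = 0.991) and 0.02 after 20 pulses (95% interval -0.12 to 0.16, adjusted p = 0.917). These intervals exclude a change of 1.5 times under this scaling, while median scaling gave 0.41 and scaling to the hybridization controls -0.20 in Ca-free medium, each called, in opposite directions. The other Erbb3 probe set was below the minimum signal.

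Erbb2 (1424919_at) read 149, 63.14, 72.05 and 214.9 in Ca-free medium, 46.71, 46.61, 47.86 and 64.25 after 20 pulses, and 43.36, 42.7, 41.53 and 84.4 in control. Ca-free arrays 1 and 4 were high, and arrays 2 and 3 lay below control 4. In the fit without a minimum signal the log2 change in Ca-free medium against control was 0.80 (limma adjusted p = 0.0478), where 6.36% of all 45037 probe sets were called higher. That setting was an alternative, and Erbb2 was not among the genes tested otherwise.

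Hbegf, the ligand, did not pass the test in any comparison, and its 4 Ca-free arrays lay in 2 pairs. Probe set 1418350_at read 688, 251.4, 265.1 and 681.8 in Ca-free medium, 335.3, 320.6, 331.9 and 330.9 after 20 pulses, and 297.1, 322, 353.2 and 330.3 in control. Ca-free arrays 1 and 4 stood far above the controls and arrays 2 and 3 below all of them, while the 4 arrays of 20 pulses lay within the control range. The log2 change in Ca-free medium against control was 0.35 (95% interval -0.19 to 0.89, limma adjusted p = 0.274). With Ca-free arrays 1 and 4 only it was 1.01 and called, and with arrays 2 and 3 only it was -0.30 and not called. No label gives these pairs, which were chosen with these data known. The fits on a pair therefore describe the split and do not test it. Median scaling gave 0.73, which was called (adjusted p = 0.03).

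The brighter Hbegf probe set (1418349_at) read 432.2, 289.6, 296.9 and 492.7 in Ca-free medium, 437, 422.3, 507.3 and 399.8 after 20 pulses, and 464.5, 382.2, 475.2 and 452.5 in control. Here too arrays 1 and 4 were the higher ones: arrays 2 and 3 lay below all controls, array 1 within their range and array 4 above it. The log2 change in Ca-free medium against control was -0.24 over the 4 arrays (limma adjusted p = 0.2). It was 0.06 with arrays 1 and 4 only and -0.54, which was called, with arrays 2 and 3 only, and these fits too only describe the split. After 20 pulses the changes of both probe sets were -0.01 and 0.02, with 95% intervals of -0.32 to 0.31 and -0.52 to 0.56. The labels give no batch for the 4 Ca-free arrays. Their Gapdh 3′ to 5′ ratio was 5.05 and 4.73 for arrays 1 and 4, and 3.10 and 2.89 for arrays 2 and 3. Their 18S rRNA signal at the 5′ end was 4003 and 4640 for arrays 1 and 4, and 5780 and 5237 for arrays 2 and 3. The Actb ratio did not part them this way (1.78 and 1.88 against 1.88 and 1.69). Why the arrays differ was not tested.

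**Figure D2:**
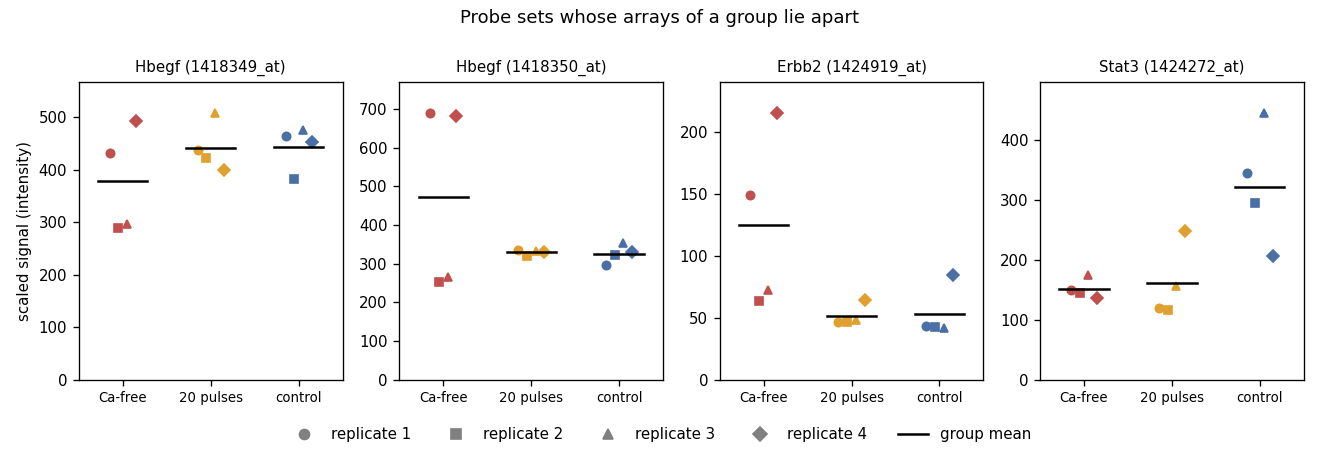
Scaled signal (y axis, intensity, from 0) on each array in Ca-free medium, after 20 pulses and in control for both Hbegf probe sets, Erbb2 and 1 Stat3 probe set. Marker shapes are replicate numbers and black lines group means. Ca-free arrays 1 and 4 stand above arrays 2 and 3 for Hbegf and Erbb2, and for Stat3 the 4 controls span 205.8 to 444.8.

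Igf1r fell in Ca-free medium on 2 of its 5 tested probe sets, and the brightest was not one of them. That probe set (1452982_at) read 191.1, 207.2, 228.5 and 130.9 in Ca-free medium, 308.8, 271.9, 188.1 and 167 after 20 pulses, and 377.9, 130, 379.9 and 258.9 in control. Control 2 was the lowest of the 12 arrays, so the groups overlapped. The log2 change in Ca-free medium against control was -0.45 (95% interval -1.02 to 0.12, limma adjusted p = 0.184), and without control 2 it was -0.75 and called.

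On the dimmer Igf1r probe set 1446303_at the signal was 91.24, 97.26, 74.72 and 111.8 in Ca-free medium, 154.7, 157.6, 158.9 and 144 after 20 pulses, and 160.7, 145.7, 180.4 and 156.3 in control. Every Ca-free array was below every other array. It was called lower against control (log2 change -0.62, limma adjusted p = 0.00392) and against 20 pulses (-0.57, adjusted p = 0.00855), and both calls ended under quantile normalization and median scaling, at -0.30 to -0.27. The other called Igf1r probe set, 1452108_at, changed by -0.82 against control (limma adjusted p = 0.00801), and by -0.49 and -0.48, no longer called, under the same scalings. It also lost the call against controls 1 and 2 alone (-0.59) and on Ca-free arrays 2 and 3 alone (-0.65). Igf1r probe sets 1426565_at and 1428967_at changed by -0.04 and -0.31 and were not called.

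Insr was not called in any of the 3 comparisons on its 3 probe sets. The brightest (1434446_at) read 261.6, 252.5, 253 and 246.2 in Ca-free medium, 331.9, 272.6, 280.6 and 259.5 after 20 pulses, and 368.5, 231, 241.5 and 289.5 in control. The Ca-free arrays fell inside the control range, and the log2 change was -0.12 (95% interval -0.40 to 0.16, limma adjusted p = 0.476). After 20 pulses it was 0.03 (95% interval -0.25 to 0.31, adjusted p = 0.938). The dimmest Insr probe set, 1450225_at, changed by -0.64 in Ca-free medium (95% interval -1.23 to -0.06, limma adjusted p = 0.0737) and was called without Ca-free array 3 (-0.82), without control 4 (-0.79), with Ca-free arrays 1 and 4 only (-1.01) and under scaling to the hybridization controls (-0.78).

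**Figure D3:**
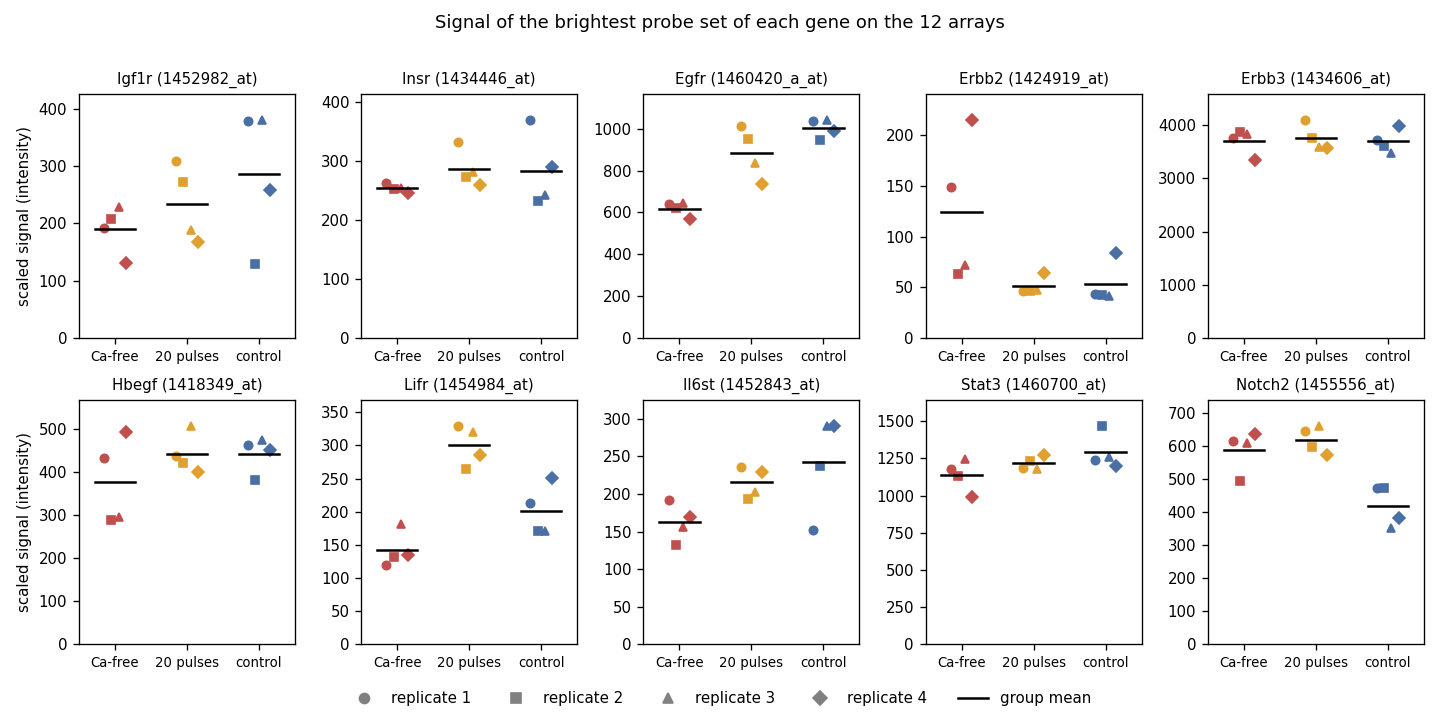
Scaled signal (y axis, intensity, each panel from 0) of the brightest probe set of each of the 10 genes on every array, with Ca-free medium left, 20 pulses in the middle and control right. Marker shapes are replicate numbers and black lines group means. Ca-free arrays lie apart below the controls for Egfr, arrays of 20 pulses lie above both other groups for Lifr, and both treatments lie above control for Notch2.

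Lifr, the LIF-binding receptor chain, read highest after 20 pulses and lowest in Ca-free medium. Its tested probe set (1454984_at) read 119.6, 132.1, 180.8 and 133.9 in Ca-free medium, 329.1, 264.9, 320.4 and 286.3 after 20 pulses, and 213.2, 171, 170.8 and 250.4 in control. The arrays of 20 pulses lay above all 8 others, and 1 Ca-free array, replicate 3, lay above 2 of the controls. Lifr averaged 142 ± 26.9 in Ca-free medium, 300.2 ± 29.9 after 20 pulses and 201 ± 38.3 in control (SD, n = 4 per group).

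Between the treatments the Lifr mean in Ca-free medium was 0.472 of that after 20 pulses, a log2 change of -0.94 (SE 0.145, 95% interval -1.25 to -0.63, limma adjusted p = 0.000997). This difference was called under every alternative in which the probe set was tested, between -1.26 and -0.62. The steps from control were less firm. In Ca-free medium the change was -0.42 (limma adjusted p = 0.0309), and leaving out Ca-free array 1, 2 or 4 or control 1 or 4 ended the call, with values from -0.53 to -0.33 over all arrays left out. Quantile normalization and median scaling also ended it, at -0.09 and -0.08, as did using either pair of controls (-0.37 with controls 1 and 2, -0.48 with controls 3 and 4). The call ended too on Ca-free arrays 2 and 3 alone (-0.31), with no minimum signal and in a fit of only the 8 arrays compared (-0.42 each). After 20 pulses Lifr changed by 0.52 (95% interval 0.21 to 0.83), which did not pass over the whole table (limma adjusted p = 0.09) except under scaling to the hybridization controls (0.67). Of the other 2 Lifr probe sets, both under the minimum, 1425107_a_at read 6.67 to 27.97 in Ca-free medium, 36.87 to 60.03 after 20 pulses and 34.44 to 66.11 in control, with the Ca-free arrays below all others.

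Il6st, which encodes the shared chain gp130, was called lower in Ca-free medium on 2 of 3 tested probe sets. The brightest (1452843_at) read 191.4, 132.3, 156.4 and 169.8 in Ca-free medium, 235.6, 193.8, 202.4 and 229.8 after 20 pulses, and 152.2, 237.3, 290 and 290.3 in control. Control 1 lay within the Ca-free range. The log2 change against control was -0.47 (limma adjusted p = 0.0391), and it lost its call without Ca-free array 2, 3 or 4 or control 2, 3 or 4 (values from -0.65 to -0.38 over all arrays left out) and with controls 1 and 2 only (-0.20). The call also ended on Ca-free arrays 1 and 4 alone (-0.34), under array weights (-0.45), with no minimum signal and in a fit of only the 8 arrays compared (-0.47 each).

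Il6st probe set 1460295_s_at, whose suffix marks a probe set that may match more than 1 transcript, read 122.1, 124.1, 159.2 and 143.3 in Ca-free medium, 261.3, 197.8, 179.7 and 161.3 after 20 pulses, and 212.2, 187.9, 213.5 and 185.1 in control. Here the Ca-free arrays were below all others. The change was -0.46 against control (limma adjusted p = 0.0215) and -0.44 against 20 pulses (adjusted p = 0.03), and leaving out 1 array could end either call. Against control these arrays were Ca-free 1 or 2 and control 1 or 3 (-0.52 to -0.41 over all arrays left out), and against 20 pulses Ca-free 1 or 2 and array 1 or 2 of 20 pulses (-0.53 to -0.32). The call against control also ended with controls 1 and 2 only (-0.46), controls 3 and 4 only (-0.45) and Ca-free arrays 2 and 3 only (-0.42). The call against 20 pulses also ended on either pair of Ca-free arrays (-0.48 for 1 and 4, -0.41 for 2 and 3), with no minimum signal and in a fit of only the 8 arrays compared (-0.44 each). Quantile normalization and median scaling brought the changes of these 2 Il6st probe sets against control to between -0.14 and -0.11, and that of 1460295_s_at against 20 pulses to -0.14 and -0.13, none called. The third Il6st probe set, 1437303_at, changed by -0.17 in Ca-free medium and 0.32 after 20 pulses, and neither passed (limma adjusted p = 0.536 and 0.496).

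The bright probe sets of Stat3, the transcription factor downstream of these chains, were not called in any comparison, while a dim one was lower in Ca-free medium. The brightest (1460700_at) read 1181, 1131, 1247 and 993 in Ca-free medium, 1184, 1235, 1178 and 1272 after 20 pulses, and 1237, 1467, 1259 and 1202 in control. The groups overlapped. The log2 change was -0.18 in Ca-free medium (95% interval -0.36 to 0.00, limma adjusted p = 0.107) and -0.08 after 20 pulses (95% interval -0.26 to 0.10, adjusted p = 0.702). Stat3 probe set 1426587_a_at changed by -0.05 in Ca-free medium (95% interval -0.27 to 0.17).

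Stat3 probe set 1424272_at read 149.7, 145, 174.2 and 136 in Ca-free medium, 120.3, 117.1, 156.9 and 248.5 after 20 pulses, and 344.6, 294.8, 444.8 and 205.8 in control. All Ca-free arrays were below all controls, and after 20 pulses replicate 4 alone exceeded the lowest control. The change was -0.91 in Ca-free medium (limma adjusted p = 0.00515), and -0.60 and -0.56, no longer called, under quantile normalization and median scaling. After 20 pulses it was -0.88 (95% interval -1.35 to -0.42), which missed the threshold (limma adjusted p = 0.0578), but it was called without replicate 4 of 20 pulses (-1.08), without control 4 (-1.06), under array weights (-0.89) and under scaling to the hybridization controls (-0.75). What separates this Stat3 probe set from the bright pair was not tested, and the positions of the probe sets in the transcript were not used here.

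Notch2 was the gene with signal above control in both treatments, on its brightest probe set (1455556_at). It read 616.5, 494.9, 608.9 and 637.4 in Ca-free medium, 646.7, 598.5, 660.3 and 572.8 after 20 pulses, and 471.8, 473.3, 352.9 and 380.7 in control. All 8 treated arrays were above all 4 controls. Notch2 averaged 589 ± 64.1 in Ca-free medium, 620 ± 41.0 after 20 pulses and 420 ± 62.1 in control (SD, n = 4 each). Both comparisons share these controls.

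The log2 change of Notch2 in Ca-free medium was 0.46 (limma adjusted p = 0.00556), and it stayed called with any single array left out (0.39 to 0.54). It was not called under scaling to the hybridization controls (0.27), against controls 1 and 2 alone (0.29) or on Ca-free arrays 2 and 3 alone (0.37). After 20 pulses the change was 0.54 (95% interval 0.30 to 0.78, limma adjusted p = 0.0301). That call rested on all 4 arrays of 20 pulses and on controls 3 and 4: leaving out any 1 of these 6 ended it, with changes of 0.46 to 0.59 over all arrays left out. Using controls 1 and 2 only (0.37), fitting no intensity trend or fitting the replicate number as a block (0.54 each) ended it too. Controls 1 and 2, with an Actb 3′ to 5′ ratio of 1.59 and 1.67, read 471.8 and 473.3 for Notch2, and controls 3 and 4, with 2.69 and 2.64, read 352.9 and 380.7.

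The other Notch2 probe set (1451889_at) went the opposite way in Ca-free medium. It read 353.9, 360.5, 328.2 and 295.1 in Ca-free medium, 494.1, 483.7, 442.3 and 385.3 after 20 pulses, and 442.7, 509.4, 335.7 and 478.5 in control. Control 3 lay among the Ca-free arrays. It was called lower against control (log2 change -0.36, limma adjusted p = 0.034). That call ended without Ca-free array 3 or 4 or control 1, 2 or 4 (values from -0.48 to -0.29 over all arrays left out). It also ended under quantile normalization (-0.15) and median scaling (0.02), with controls 3 and 4 only (-0.25), and on either pair of Ca-free arrays (-0.40 for 1 and 4, -0.32 for 2 and 3). After 20 pulses it changed by 0.04 (95% interval -0.23 to 0.31, adjusted p = 0.916). The 2 Notch2 probe sets therefore give no single direction for the gene in Ca-free medium, and after 20 pulses only the brighter was called.

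**Figure D4:**
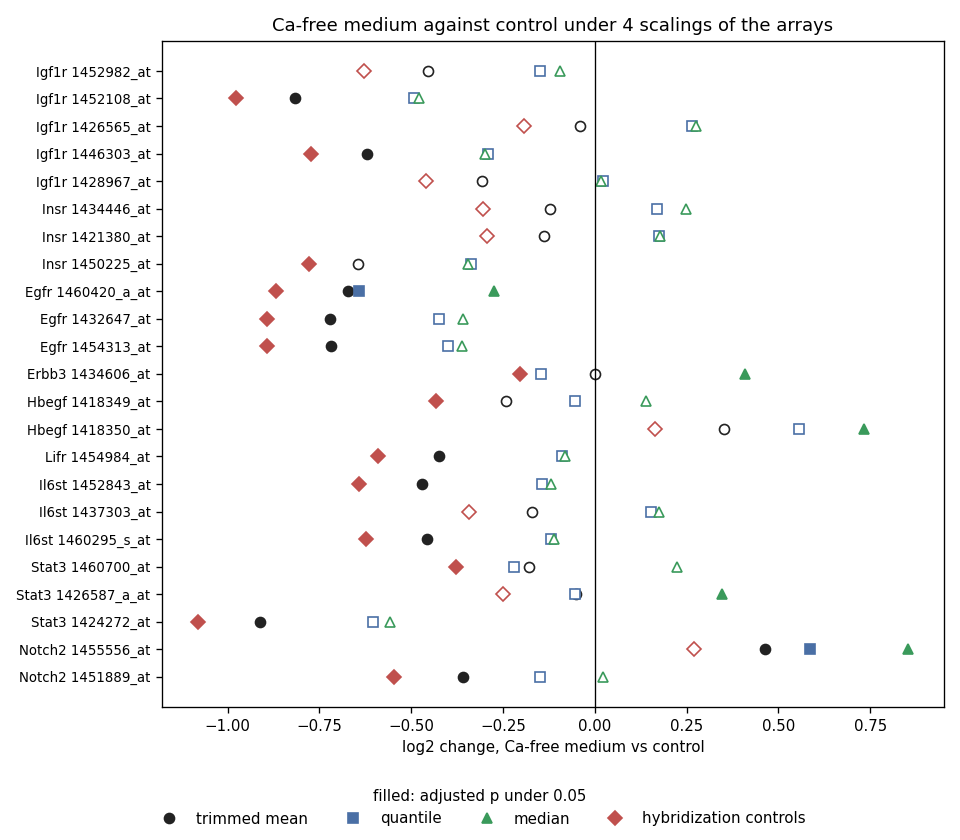
Log2 change in Ca-free medium against control (x axis) of each tested probe set of the receptor genes (rows) under 4 scalings of the arrays (marker shapes, filled where called). The Egfr probe set 1460420_a_at stays below 0 under each scaling (-0.87 to -0.28), while Erbb3 is 0.41 under median scaling and -0.20 under scaling to the hybridization controls.

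The partners of these receptors were read from 4 pathway lists, each without the 10 genes and with the brightest probe set for a gene. For all 13599 tested genes, 12.3% were called higher and 28.8% lower in Ca-free medium against control, with a median change of -0.13. Of 27 tested genes of EGF and ERBB signalling, 1 was higher and 9 lower (median -0.14), of 29 of insulin and IGF signalling, 2 higher and 7 lower (-0.11), of 22 of LIF and interleukin-6 family signalling, 2 higher and 9 lower (-0.24), and of 31 of Notch signalling, 3 higher and 18 lower (-0.41). Under median scaling these counts turned to 9 higher and 0 lower, 14 and 1, 9 and 3, and 10 and 3, while the median of the Notch list was -0.01, and 36.9% of all probe sets were called higher and 5.46% lower. After quantile normalization they were 0 higher and 4 lower, 3 and 2, 0 and 3, and 1 and 8 (all probe sets 9.85% and 9.93%), and under scaling to the hybridization controls 0 and 17, 0 and 13, 0 and 14, and 0 and 22 (all probe sets 2.74% and 49.2%). After 20 pulses against control 0 genes of any of the 4 lists were called by limma, where 0.75% of all genes were called higher and 0.331% lower. Under scaling to the hybridization controls 1, 3, 1 and 1 genes were called higher in the same order, where 7.59% of all probe sets were.

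In the EGF and ERBB list, Grb2, the adaptor that links receptors to RAS, was called higher in Ca-free medium (log2 change 0.24), at 2375 ± 128 against 2003 ± 57.0 in control. Another Grb2 probe set was called lower. The call of the brightest ended under quantile normalization (0.14), under scaling to the hybridization controls (0.04) and on Ca-free arrays 2 and 3 alone (0.18). Braf, a kinase between RAS and ERK, was lower (-0.66), and 5 of its 7 other tested probe sets were called lower too. Dusp6, a phosphatase that inactivates ERK, read 701.5, 399.9, 390.5 and 589.6 in Ca-free medium against 947.4, 810.9, 653.6 and 817.6 in control, with Ca-free array 1 inside the control range (-0.63). Under median scaling neither Braf (-0.27) nor Dusp6 (-0.24) was called, and Dusp6 also lost its call against controls 3 and 4 alone (-0.51) and on Ca-free arrays 1 and 4 alone (-0.30).

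In the insulin and IGF list, Igfbp5, which encodes a binding protein of the insulin-like growth factors, had the largest decrease. It read 395.6, 569.6, 405 and 473.9 in Ca-free medium, 1389, 1003, 1061 and 832.4 after 20 pulses, and 782, 1439, 674.9 and 1018 in control. No Ca-free array reached the other groups. The log2 change of Igfbp5 against control was -0.99 (SE 0.20, limma adjusted p = 0.00209), and it was called under quantile normalization (-0.91), median scaling (-0.60) and scaling to the hybridization controls (-1.18). Irs1, the docking protein of both receptors, changed by -0.73 (-0.40 and not called under quantile normalization or median scaling, and -0.59 and not called against controls 3 and 4 alone). Grb14, an adaptor that inhibits the insulin receptor, and Foxo3, a transcription factor restrained by AKT, were called higher (0.45 and 0.41) and not so under scaling to the hybridization controls (0.25 and 0.21). Grb14 also lost its call against controls 3 and 4 alone (0.37) and on Ca-free arrays 2 and 3 alone (0.32). Foxo3 lost its call against controls 1 and 2 alone (0.26), and its 1 other tested probe set was not called.

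In the LIF list, Socs3, the feedback inhibitor of gp130 signalling that STAT3 induces, had the largest decrease, with all 3 of its tested probe sets called lower. The brightest read 1532, 660.7, 696.7 and 1632 in Ca-free medium, 2027, 1344, 2225 and 1504 after 20 pulses, and 3983, 4066, 1538 and 1631 in control. Controls 1 and 2 were far above controls 3 and 4, and Ca-free arrays 1 and 4 above arrays 2 and 3, so the groups overlapped. The log2 change of Socs3 was -1.26 (SE 0.35, limma adjusted p = 0.0113). It was -0.59 against controls 3 and 4 alone and -0.67 on Ca-free arrays 1 and 4 alone, neither called. Against controls 1 and 2 alone it was -1.92 and on Ca-free arrays 2 and 3 alone -1.85, both called.

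Ctf1, which encodes cardiotrophin 1, a ligand of the LIFR and gp130 pair, read 182 ± 28.3 in Ca-free medium against 333 ± 50.5 in control (log2 change -0.77, limma adjusted p = 0.0024) and was called under quantile normalization (-0.47), median scaling (-0.41) and scaling to the hybridization controls (-0.94). Socs2, another inhibitor of cytokine signalling, was called higher (0.34), though not under quantile normalization (0.30) or scaling to the hybridization controls (0.14). It read 1645, 1065, 1139 and 1569 in Ca-free medium, 1371 to 1554 after 20 pulses and 1012 to 1084 in control, and with Ca-free arrays 2 and 3 only the change was 0.07. The Socs2 call also ended without Ca-free array 1 or 4 or without any single control (0.24 to 0.44 over all arrays left out), and 1 of its 4 other probe sets was called lower. With controls 1 and 2 only (0.33) or controls 3 and 4 only (0.34) Socs2 was not called either. Ptpn11, the phosphatase SHP2, was called higher (0.25), but not under quantile normalization (0.14) or scaling to the hybridization controls (0.05). Its call also ended against controls 3 and 4 alone (0.18) and on Ca-free arrays 2 and 3 alone (0.20), and its 2 other tested probe sets were not called.

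In the Notch list, the ligand Dll1 read 185.4, 161.6, 205.5 and 97.54 in Ca-free medium, 219.3, 185, 198.6 and 206.1 after 20 pulses, and 367.3, 246, 309.3 and 349.5 in control. The Ca-free arrays were below every control. Dll1 changed by -0.87 (SE 0.17, limma adjusted p = 0.00196) and Dtx4, a Deltex ubiquitin ligase, by -0.89 (SE 0.14, limma adjusted p = 0.000567), and both were called under all 4 scalings, at -0.52 for Dll1 and -0.54 for Dtx4 under median scaling. The 1 other tested Dtx4 probe set was not called. Dtx2, another Deltex gene, and Mib1, a ubiquitin ligase for Notch ligands, were called higher (0.45 and 0.34). Neither was called under scaling to the hybridization controls (0.25 and 0.15), and Dtx2 not after quantile normalization (0.40). Against controls 3 and 4 alone Dtx2 changed by 0.20, and against controls 1 and 2 alone Mib1 changed by 0.17, neither called. Mib1 also lost its call without Ca-free array 1 or 3 or control 3 or 4 (0.27 to 0.43 over all arrays left out). On Ca-free arrays 1 and 4 alone Dtx2 (0.44) was not called, and on arrays 2 and 3 alone Mib1 (0.32) was not. The 1 other tested probe set of Dtx2 and the 2 others of Mib1 were not called.

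For the 4 genes called on their brightest probe set, the tested genes with the most similar profile over the 12 arrays were found by the root mean square difference of centred log2 signals. For Egfr, whose own SD over the arrays was 0.32, they were Lmf2, a lipase maturation factor, and Mtarc1, a mitochondrial reductase component, at 0.056 each. Lmf2 averaged 730 ± 45.5 in Ca-free medium, 1051 ± 94.6 after 20 pulses and 1149 ± 80.1 in control (SD, n = 4 each), the same order of groups as Egfr. For Lifr (SD 0.44) they were the small GTPase gene Rab39b (0.15) and the peptidase gene Tpp2 (0.18), and both had their highest mean after 20 pulses. Rab39b averaged 101 ± 15.3 in Ca-free medium, 216 ± 29.5 after 20 pulses and 166 ± 13.5 in control. For Il6st (SD 0.31) they were Etv3, an ETS family factor, and Gm5802, at 0.13 and 0.14. For Notch2 (SD 0.29) they were Tor1b, a torsin, at 0.094 and the phosphatase gene Bpnt2 at 0.11, each with its lowest mean in control.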

How the data were processed

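RNA of 12 mouse blastocyst samples was hybridised to 1-colour arrays. The authors deposited intensity values made with MAS5, per the submitters' processing notes (version not given in the sources used here). Each array as deposited had a 2% trimmed mean of 150.001. Values were rescaled to 500 and 32 was added before log2. Of 45037 probe sets, 27808 with a mean of at least 100 were tested with limma 3.58.1 in R 4.3.3 (lmFit, eBayes with trend, all 12 arrays in 1 model, adjusted p under 0.05). Detection calls were not used. With 4 arrays a group, their number limits the precision.

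The annotation paired 34958 probe sets with 1 gene, 932 with several and 9211 with none, and 34754 symbols were matched to RefSeq. All probe sets of the 10 genes were counted, and the brightest of each gene and every called one were named, while some others were not. Also named were the 2 largest called changes each way of each pathway list and treatment against control, and the 2 most similar genes of each gene called on its brightest probe set. The genes, lists, tests and alternatives were chosen with earlier results of these data known. On simulated data, 76%, 84% and 84% of 2-fold changes were recovered in Ca-free medium against control, 20 pulses against control and Ca-free medium against 20 pulses, among 27808 probe sets each. Of 1.5-fold changes, 51%, 34% and 44% were recovered in the same order. Each simulation changed 100 probe sets by 1.5-fold and 50 by 2-fold, far fewer than were called in Ca-free medium. These rates therefore need not hold for the real table, and smaller changes could be missed.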

Additional observations from a re-analysis of the deposited data

How the results depend on the processing

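The replicate numbers are shared by the groups, but residuals of same-numbered arrays correlated at a mean r of 0.0156 (-0.058 to 0.101), so the numbers were not taken to pair the samples, although for 7 of 12 arrays the best correlation was with a same-numbered array. With the replicate block, 0 probe sets and 0 genes of the receptor genes were called after 20 pulses against control, against 1 and 1 without it.

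In Ca-free medium against control, the 11 called probe sets were 2 after quantile normalization, 5 under median scaling, 3 of 8 with a minimum signal of 300, 6 with controls 1 and 2, 6 with controls 3 and 4, and 7 with Ca-free arrays 2 and 3, and 8 to 11 with an array left out. The 4 called genes were 2 after quantile normalization, 2 of 5 with the higher minimum, 2 in a fit of only the 8 arrays compared, 1 with controls 1 and 2, and 2 to 4 with an array left out. They were 5 with the mean of probe sets, 0 higher and 5 lower, where 9.48% of all genes were higher and 31.4% lower. With the higher minimum 17.7% of all probe sets were higher and 20.9% lower. After 20 pulses, the 1 called probe set was 3 under scaling to the hybridization controls (2 genes), 0 without the intensity trend (0 genes), 2 with array weights, 0 with controls 1 and 2 (0 genes), and 0 to 1 with an array left out (0 to 1 genes). The gene count was 0 with the mean of probe sets, where 0.699% of all genes were called higher and 0.331% lower. Under scaling to the hybridization controls 7.59% of all probe sets were higher and 0.125% lower. In Ca-free medium against 20 pulses, the 6 probe sets were 2 after quantile normalization, 19 under scaling to the hybridization controls, 2 of 8 with the higher minimum, and 3 to 7 with an array left out (3 without array 1 of 20 pulses). Under median scaling the 6 probe sets were 5 higher and 1 lower. The 2 genes, both lower, were 4 under median scaling (3 higher, 1 lower), 8 (all lower) under scaling to the hybridization controls, 1 of 5 with the higher minimum, 4 with the mean of probe sets, and 2 to 2 with an array left out. Of all probe sets 31.5% were higher and 3.53% lower under median scaling, and 71% lower under scaling to the hybridization controls. With the higher minimum 16.7% were higher and 18% lower. With the mean of probe sets 7.9% of all genes were higher and 23.1% lower. Fewer probe sets were tested with the higher minimum and fewer arrays with pairs, and for the other settings the cause was not tested. The pairs of arrays are not in the labels and were chosen with these data known.

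Of values called in either setting, median scaling gave the opposite sign for Erbb3 (0.35), Stat3 1460700_at (0.27) and Notch2 1455556_at (0.29) in Ca-free medium against 20 pulses, and for Stat3 1426587_a_at (0.35) and Notch2 1451889_at (0.022) against control. Scaling to the hybridization controls did so for Erbb3 against control (-0.20) and Stat3 1426587_a_at against 20 pulses (-0.32). Of the 69 values of tested probe sets, 14 more turned their sign under median scaling, 7 under scaling to the hybridization controls and 12 after quantile normalization, called in neither setting. For single probe sets, 1668 values kept their side of the threshold, 99 lost and 44 gained a call.

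Over all probe sets, 11193 were called in Ca-free medium against control (2944 higher, 8249 lower), 5498 after quantile normalization (2738 higher, 2760 lower), 11777 under median scaling (10259 higher, 1518 lower), 14541 under scaling to the hybridization controls (768 higher, 13773 lower), 5658 with the higher minimum and 6520 with controls 3 and 4. After 20 pulses the 411 calls (307 higher, 104 lower) became 2160 under scaling to the hybridization controls (2125 higher, 35 lower), 155 without the trend, 717 with array weights, 227 with the replicate block, 201 with controls 1 and 2, 786 with controls 3 and 4, and 633 with Ca-free arrays 1 and 4. With an array left out they were 110 to 414: 110 without array 4 of 20 pulses, 111 without array 3 and 152 without array 2, and 117, 215 and 256 without control 3, 4 and 2. In Ca-free medium against 20 pulses the 9070 calls (2565 higher, 6505 lower) became 2801 after quantile normalization (1415 higher, 1386 lower), 9749 under median scaling (8768 higher, 981 lower), 19960 under scaling to the hybridization controls (92 higher, 19868 lower), 5080 with the higher minimum and 5890 with Ca-free arrays 2 and 3.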
